A study of Mus musculus with 36 samples.

Results

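The transcripts described here encode the proteins of the mitochondrial ribosome. They were taken as all gene IDs present in both deposited tables that begin with Mrpl or Mrps and a number, without pseudogene IDs, and with a mean level of at least 1 over all libraries. All 77 matching IDs passed, 48 for the large subunit (Mrpl) and 29 for the small subunit (Mrps), out of 24883 rows in the tables and 15173 rows tested. No member stood on more than 1 row, and the lowest mean level among them was 11.2. RNA was sequenced from a dissected brain region enriched for the suprachiasmatic nucleus (SCN), the hypothalamic nucleus that holds the central circadian clock. The mice were adult C57BL/6J animals with no genetic change named, kept for 10 weeks on normal chow or on a high-fat diet. In each diet, 3 libraries were made at each of 6 zeitgeber times (ZT 0, 4, 8, 12, 16 and 20), 36 libraries in 12 groups; ZT 0 is by convention lights-on. Nothing in the labels ties the 3 libraries of a group to separate animals, so p-values measure the spread between these samples, which may be technical.

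The mitochondrial ribosome translates the few messenger RNAs of mitochondrial DNA, which code for core subunits of the respiratory chain and ATP synthase. Its RNAs are made inside the mitochondrion, but all of its proteins are encoded in the nucleus, made on cytosolic ribosomes and imported. Some of these proteins are homologues of bacterial ribosomal proteins, and the others were added during the evolution of mitochondria. Assembly needs roughly matched amounts of many proteins, helped by dedicated GTPases, RNA helicases and RNA methyltransferases. Neurons depend heavily on the respiratory chain, and many nuclear genes for mitochondrial proteins carry promoter motifs for the factors NRF1, GABP (an ETS factor) and YY1.

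Promoters were available in RefSeq (GRCm38.p6) for 68 of the 77 genes, as windows of 250 bases before to 50 bases after the start. Of 3 motifs often found at mitochondrial genes, searched on both strands, the ETS motif CCGGAAG was in 24 of the 68 windows (35.3%), against 9.12% of all 27025 promoters and 16.3% of those of tested genes. The NRF1 motif, GCGCA and GCGC with any 1 base between, was in 13 (19.1%, against 4.78% and 9.63%). The YY1 motif AAGATGGCG was in 8 (11.8%, against 1.49% and 2.91%). At least 1 of these 3 was in 39 windows (57.4%), against 14.0% of all promoters and 26.0% of those of tested genes. The windows had a median GC content of 58.2%, against 52.7% over all promoters and 60.7% over those of tested genes. Of motifs bound by circadian factors, the E-box CACGTG was in 5 windows (7.35%, against 7.24% of all promoters and 9.85% of those of tested genes), and AGGTCA, the core of the REV-ERB and ROR sites, was in 11 (16.2%, against 16.0% and 12.3%). No motif of the 5 contains another, and a match is a description of the letters only. The 4 promoters below belong to genes on which the comparisons turn, 5′ to 3′ on the gene's strand, with matches to the 5 motifs in capitals. Mrpl57 (chr14:57825989-57826288, plus strand) holds the motifs of NRF1 and ETS and 1 AGGTCA, read as TGACCT. Mrpl2 (chr17:46645971-46646270, plus strand) holds the E-box. Mrps22 (chr9:98601630-98601929, minus strand) holds 1 ETS motif and 2 copies of AGGTCA. Mrpl52 (chr14:54426659-54426958, plus strand) holds the ETS motif at 2 positions, both read as CTTCCGG.
Mrpl57: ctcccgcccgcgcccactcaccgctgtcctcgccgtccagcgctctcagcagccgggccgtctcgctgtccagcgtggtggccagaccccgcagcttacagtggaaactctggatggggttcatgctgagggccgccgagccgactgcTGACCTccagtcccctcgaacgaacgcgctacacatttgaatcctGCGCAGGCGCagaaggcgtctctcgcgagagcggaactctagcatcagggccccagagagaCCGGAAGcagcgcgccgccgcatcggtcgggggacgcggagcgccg
Mrpl2: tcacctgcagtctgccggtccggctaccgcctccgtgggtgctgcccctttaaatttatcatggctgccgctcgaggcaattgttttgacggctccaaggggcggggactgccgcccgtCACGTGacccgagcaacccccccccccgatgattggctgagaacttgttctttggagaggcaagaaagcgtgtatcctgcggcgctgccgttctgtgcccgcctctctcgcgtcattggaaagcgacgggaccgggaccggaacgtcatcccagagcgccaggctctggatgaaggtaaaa
Mrps22: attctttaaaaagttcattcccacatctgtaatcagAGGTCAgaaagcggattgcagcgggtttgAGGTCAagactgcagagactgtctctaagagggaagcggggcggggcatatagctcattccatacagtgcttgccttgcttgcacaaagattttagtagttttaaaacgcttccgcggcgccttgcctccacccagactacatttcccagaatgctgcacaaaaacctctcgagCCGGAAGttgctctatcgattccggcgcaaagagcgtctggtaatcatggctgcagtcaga
Mrpl52: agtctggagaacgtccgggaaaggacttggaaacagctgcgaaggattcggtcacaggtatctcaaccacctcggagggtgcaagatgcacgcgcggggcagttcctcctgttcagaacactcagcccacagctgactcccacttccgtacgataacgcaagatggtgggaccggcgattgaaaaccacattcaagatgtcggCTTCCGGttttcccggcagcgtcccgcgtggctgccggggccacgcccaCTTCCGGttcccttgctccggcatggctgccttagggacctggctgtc

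Levels are FPKM, the usual per-length and per-depth unit of RNA sequencing, rescaled so that each library sums to 1000000, and can therefore be compared between genes. The deposited columns summed to 302899 to 432336 (median 379447), and the number of reads is not given in the sources used here. Of the genes used here as SCN markers, Avp ran from 234 to 4301, Vip from 6.30 to 135, Six6 from 1.22 to 10.6 and Lhx1 from 1.30 to 6.25. None of these was at 0 in any library. Markers of neighbouring regions were present too, with Oxt at 372 to 4751 and Hcrt at 0.979 to 683. Liver transcripts such as Alb (1.59 to 1890) were high in 3 libraries (chow ZT 0 replicate 1, chow ZT 4 replicate 1 and high-fat ZT 0 replicate 3). Striatal transcripts were high in 2 (chow ZT 12 replicate 3 and high-fat ZT 16 replicate 3). In a dissected region, fewer cells of a type and less RNA per cell cannot be told apart. The diets were deposited in separate tables, and a difference between the tables' making and an effect of diet cannot be told apart.

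The mitochondrial ribosomal protein transcripts were abundant and varied little. Their median level was 61.5 (quartiles 42.5 and 97.3), against 20.2 for all rows tested, and together they made up 0.597% of the summed values. The large and the small subunit lay close together, with medians of 62.5 and 59.3. By their numbers, 28 members of the large and 16 of the small subunit are of bacterial type, and 20 and 13 are mitochondria-specific. The names are not exact: Mrps24 is the homologue of bacterial S3, Mrps18a and Mrps30 belong to the large subunit, and Mrps36 is now known as a subunit of the alpha-ketoglutarate dehydrogenase complex. The highest was Mrps21, which codes for the homologue of bacterial S21, at 352 ± 38.5 (SD over 36 libraries), with 288 to 412 under chow and 282 to 464 under the high-fat diet. Next came Mrpl20 at 219.9 ± 24.6, Mrpl52 at 214.8 ± 30.8, Mrpl33 at 175 ± 28.1 and Mrpl30 at 168 ± 13.3. Of these, Mrpl20 and Mrpl52 differed by less than their spread, as did Mrpl33 and Mrpl30. At the other end stood Mrpl17 at 11.2 ± 0.694, Mrpl1 at 13.9 ± 0.957, Mrpl19 at 14.1 ± 0.818, Mrpl15 at 19.2 ± 1.34 and Mrpl57 at 20.0 ± 2.0. Mrpl1 and Mrpl19, and Mrpl15 and Mrpl57, again differed by less than their spread. The mean levels thus spanned a 31.5-fold range. Genes with shorter transcripts had higher levels: across the 77 genes, which share their libraries, length and mean level had a Spearman rho of -0.576. FPKM is itself divided by a length, and the length used here is that of a reference transcript. The part of the unit in this relation was not tested. Over all rows tested the median level also fell with length, from 42.5 under 750 nt to 34.7 from 750 to 1200 nt and 20.9 above.

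**Figure D1:**
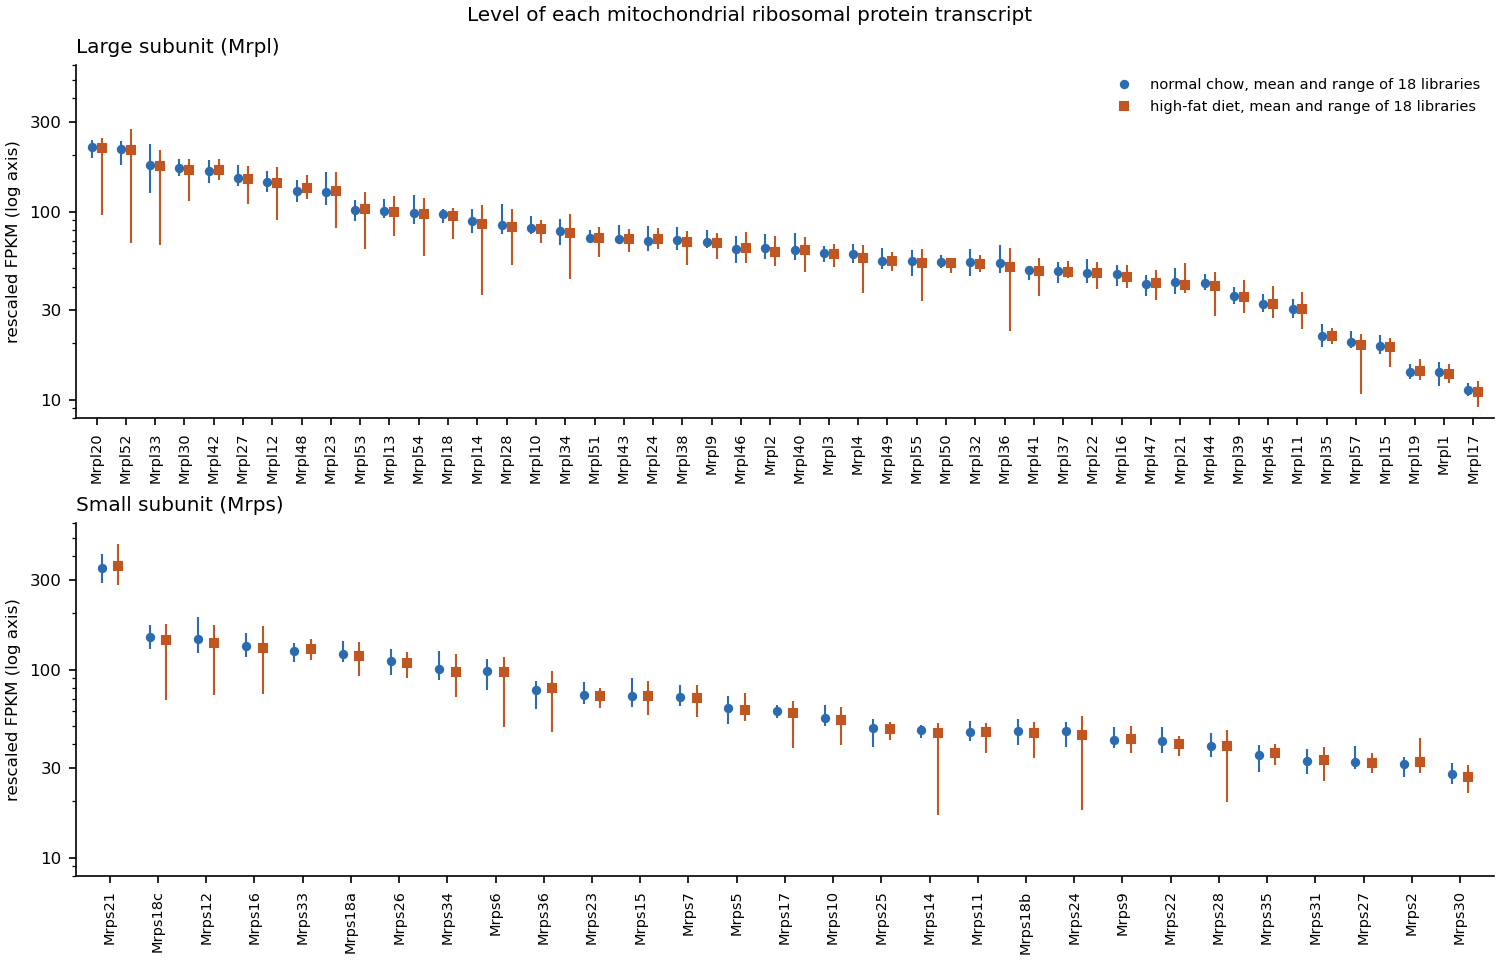
Mean (symbol) and range (line) of rescaled FPKM on a log axis for each transcript over the 18 libraries of each diet, ordered by mean level within each subunit. The levels ran from 11.2 for Mrpl17 to 352 for Mrps21, and the ranges of the diets overlapped for every gene.

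The SD of log2(value + 1) over the 36 libraries had a median of 0.121 for the members. It was 0.171 for the 9428 rows with a mean between the lowest and the highest member mean. Those rows were not matched to the members in level within that range. The steadiest were Mrpl50 (SD 0.068), Mrpl19 (0.077) and Mrpl17 (0.084). Mrpl50, a mitochondria-specific protein of the large subunit, stayed between 46.9 and 58.9 in all libraries. The most variable were Mrpl52 (0.299), Mrpl33 (0.290) and Mrps24 (0.250), all of which had their lowest value in the same library. Without that library their SDs were 0.118, 0.175 and 0.117, and the median SD of the members was 0.105. The most variable were then Mrpl33, Mrps18b (0.151) and Mrps21 (0.148).

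That library, high-fat ZT 8 replicate 2, stood apart from the other 35. The median deviation of the members from their means was -0.29 there on the log2 scale, while in the other libraries it ran from -0.11 to 0.18. Of the 77 members, 41 had their lowest value of all 36 libraries there, against 11.3% of the rows tested. Related sets were lower still. Nuclear-encoded respiratory chain subunits had a median deviation of -0.95, cytosolic ribosomal proteins of -0.71 and mitoribosomal proteins with other names of -0.36. The median deviation of all rows tested was 0.25. Mitoribosome assembly factors (-0.07) and mitochondrial aminoacyl-tRNA synthetases (-0.03) lay between the members and all rows. Mitochondrial translation factors (0.20) and regulators of mitochondrial genes such as Nrf1 and Ppargc1a (0.51) were above their means. The library also had the lowest sum of deposited values (302899). Its summed pan-neuronal and astrocyte markers, 6836 and 3832, were the highest of all 36, while those of other hypothalamic nuclei (889) were the lowest. Its summed SCN markers (1487) had rank 4 from the lowest, and their median deviation of -0.56 was the lowest of all 36. Counted from the lowest, blood markers (1369) had rank 3, ependymal and tanycyte markers (209) rank 4, and endothelial and mural markers (200) rank 35. The remaining lists had ranks from 17 to 34. The deviation followed transcript length. In classes set after the values were seen, the 12 members with a transcript under 750 nt had a median deviation of -0.72, the 23 from 750 to 1200 nt of -0.42 and the 42 longer ones of -0.13 (rho 0.563 across members). All rows of the same length classes deviated by -0.76, -0.37 and 0.30. How these features of the library bear on the members' values was not tested. Many counts and medians of the members are given with and without this library. Others are given only with it, such as the intervals for diet, the members without overlap at ZT 8 and the count for a difference in rhythm.

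**Figure D2:**
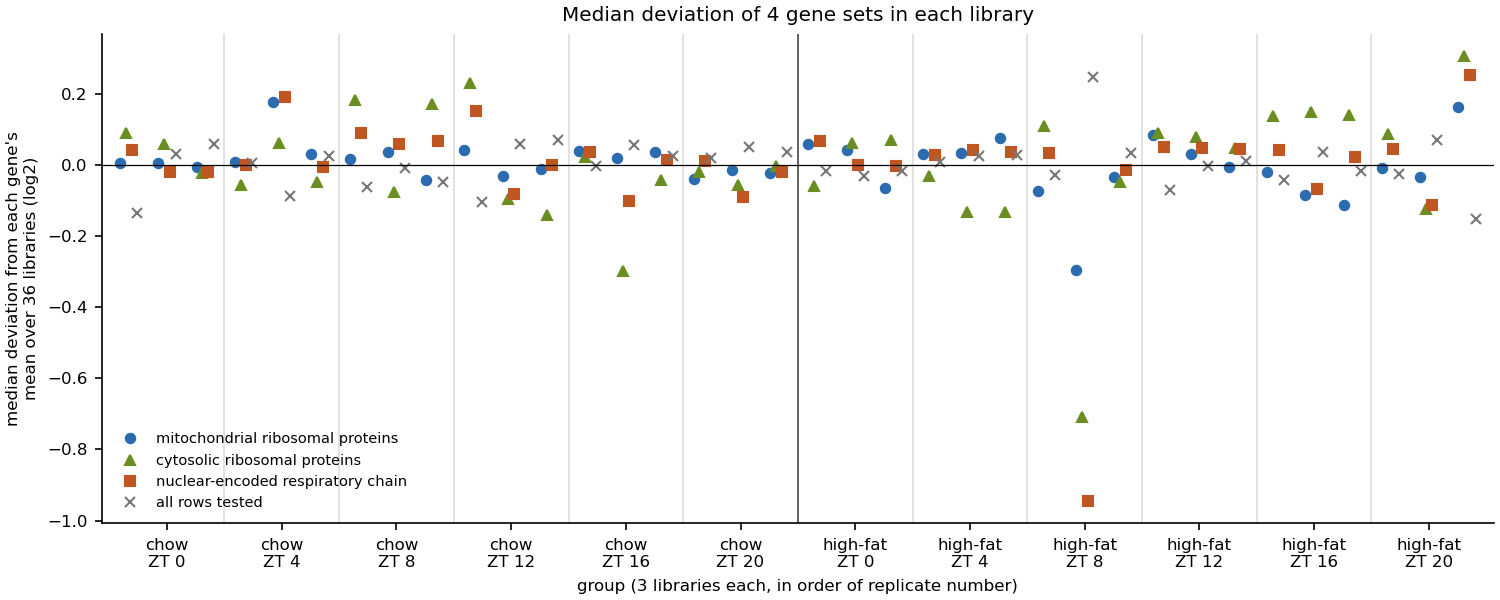
Median deviation (log2) of the members, of cytosolic ribosomal proteins, of respiratory chain subunits and of all rows tested from each gene's mean, in each of the 36 libraries. In high-fat ZT 8 replicate 2 the members stood at -0.29, cytosolic ribosomal proteins at -0.71 and respiratory chain subunits at -0.95.

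**Figure D3:**
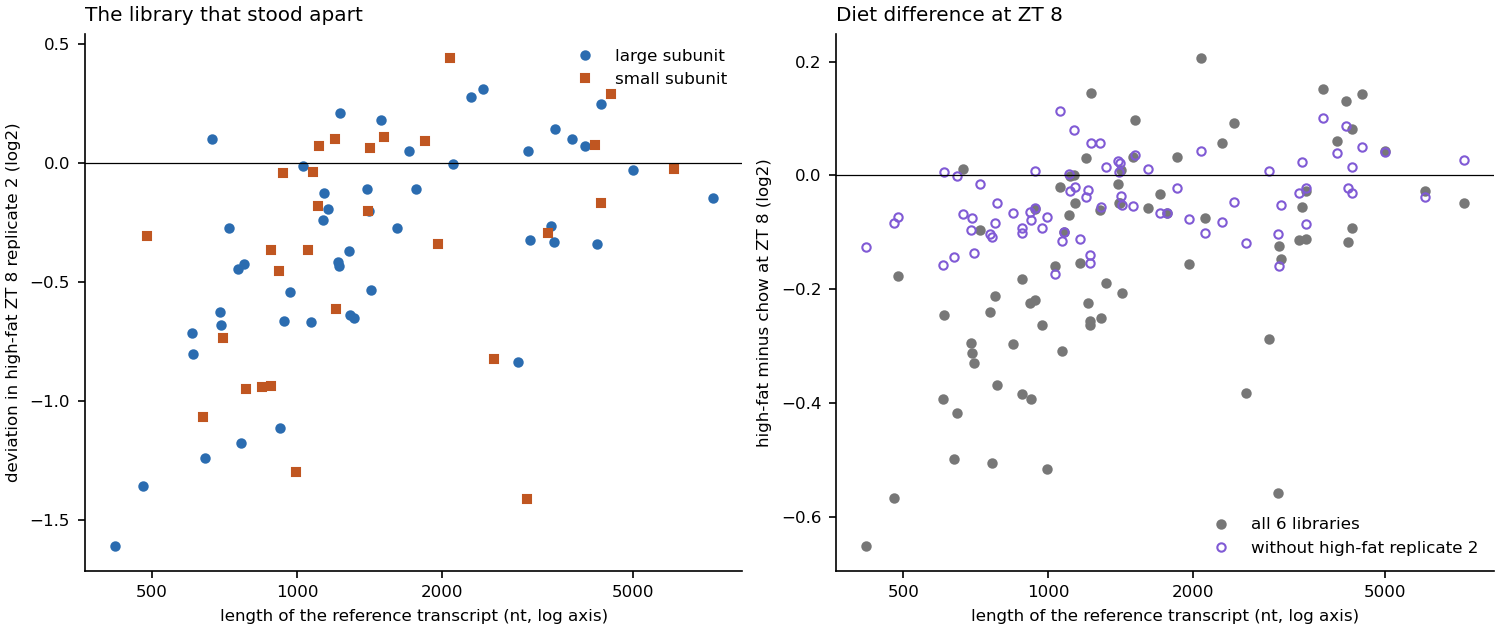
Left, deviation (log2) of each member in high-fat ZT 8 replicate 2 against the length of its reference transcript (log axis); right, the difference between diets at ZT 8 with all libraries and without that one. Members under 750 nt had a median deviation of -0.72 and those of 1200 nt or more of -0.13.

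The first comparison asked whether the high-fat diet changed these transcripts whatever the hour. No member was called: 0 of 77 passed an adjusted p of 0.05 in limma (linear models with moderated variances, p-values adjusted by Benjamini-Hochberg over all rows tested), and 0 passed an unadjusted p of 0.05. Over all rows tested, 0.0132% were called and 2.56% passed unadjusted. The median member difference was -0.02 on the log2(value + 1) scale, with 60 members lower and 17 higher under the high-fat diet, against a median of -0.0005 and 50.5% lower over all rows. Without high-fat ZT 8 replicate 2 the median was -0.006 and 46 were lower, against a median of -0.01 and 61.5% lower over all rows. The 95% intervals of 69 members lay within 0.2 on either side of 0, and all lay between -0.26 and 0.16. The most negative estimates were those of Mrps24, the homologue of bacterial S3 at the messenger RNA entry site (-0.09 ± 0.08, SE), Mrps14 (-0.09), Mrpl36 (-0.09), Mrps12, the homologue of the decoding-site protein S12 (-0.09), and Mrpl14 (-0.08). Without high-fat ZT 8 replicate 2 these 5 estimates were -0.02, -0.02, -0.04, -0.04 and -0.008. The most positive were Mrpl48 (0.05 ± 0.03), Mrps35 (0.04), Mrps33 (0.03), Mrps21 (0.03) and Mrps2 (0.03), of which Mrps2 stood at 0.0005 without high-fat ZT 8 replicate 2, Mrps21 at 0.007 without high-fat ZT 16 replicate 3 and Mrps33 at 0.02 without high-fat ZT 20 replicate 3. All 10 had an adjusted p of 1.0.

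At single time points no member was called either: 0 of 77 at each of the 6 times, with 0% of rows called at ZT 0, 4, 8, 16 and 20 and 0.00659% at ZT 12. At an unadjusted p under 0.05, 30 members passed at ZT 8 (16.1% of rows did) and 16 at ZT 16 (10.7% of rows did), all of them lower under the high-fat diet.

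At ZT 8 the 30 members lower at an unadjusted p under 0.05 compare with 5.25% of the rows tested that were lower by the same rule. The median member difference was -0.11, with 60 of 77 lower, while the median of all rows was 0.12. With values as deposited, or with median-of-ratios size factors, the median of all rows moved to -0.01 and 75 or 73 members were lower. Relative to the median of all rows, the members' median was between -0.25 and -0.17 under the scalings, pseudocounts and filters tried. Mrpl52, a mitochondria-specific protein of the large subunit whose promoter is printed above, had the most negative difference. Its values were 238, 202 and 239 under chow and 221, 68.5 and 194 under the high-fat diet, a difference of -0.65 ± 0.23 (SE; adjusted p = 0.273, limma). The high-fat libraries overlapped the chow range in replicate 1 and lay below it in replicates 2 and 3, far below in replicate 2. Mrps14, the homologue of bacterial S14, read 48.4, 49.7 and 46.5 against 46.9, 16.8 and 42.9. In the opposite direction, Mrps2, the homologue of bacterial S2, read 29.9, 31.5 and 27.7 against 30.1, 43.4 and 31.1, a difference of 0.21 that was 0.04 without replicate 2.

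Without high-fat ZT 8 replicate 2, 1 of the 77, Mrpl18, passed the unadjusted threshold (1.11% of rows were lower by this rule), the median member difference was -0.05, and 54 members were lower, against a median of 0.04 and 38.3% lower over all rows. Mrpl52 then differed by -0.13 and Mrpl18 by -0.15. When high-fat ZT 8 replicate 1 was left out instead, so that replicate 2 was 1 of the 2 remaining libraries, 16 members were called as lower, against 7.24% of rows called in either direction. Across the alternatives, the adjusted p of Mrpl52 ran from 0.0350 to 1.0. The difference at ZT 8 also followed length with all libraries, with medians of -0.32, -0.21 and -0.05 from the shortest to the longest class, and of -0.08, -0.07 and -0.02 without replicate 2. All rows of these classes followed length too, with -0.31, -0.16 and 0.14 with all libraries and -0.04, -0.04 and 0.05 without it. In 12 members every high-fat value at ZT 8 was below every chow value, as in 3.16% of the rows tested. These were Mrpl2, Mrpl4, Mrpl16, Mrpl18, Mrpl20, Mrpl27, Mrpl28, Mrpl30, Mrpl41, Mrpl54, Mrps7 and Mrps18c.

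At ZT 16 the lower values were spread over all 3 high-fat libraries, with median deviations of the members of -0.02, -0.08 and -0.11 against 0.04, 0.02 and 0.04 under chow. Of the 77, 16 were lower at an unadjusted p under 0.05 (8.17% of rows were lower by this rule) and 64 were lower in all, with a median difference of -0.11 against -0.02 over all rows. The most negative difference was that of Mrps22, a mitochondria-specific protein of the small subunit in which inherited mutations cause mitochondrial disease. Its values were 48.6, 49.2 and 46.0 under chow and 41.2, 34.8 and 36.2 under the high-fat diet. The groups did not overlap, and the chow values at ZT 16 were its highest of all 36 libraries. The difference was -0.35 ± 0.08 (SE; unadjusted p = 0.000211, adjusted p = 0.284, limma), and its adjusted p ran from 0.0762 to 1.0 across the alternatives. Of the classes, 7 of 20 mitochondria-specific and 4 of 28 bacterial-type proteins of the large subunit passed unadjusted, and 3 of 13 and 2 of 16 of the small subunit. In 22 members all high-fat values were below all chow values, as in 12.3% of the rows tested, and in 1 the order was the reverse. That one was Mrpl33, with 178, 125 and 156 under chow and 194, 188 and 211 under the high-fat diet (0.38 ± 0.23). Unlike at ZT 8, the shortest class was not the lowest, with medians of 0.05, -0.12 and -0.12 from the shortest to the longest class, and all rows of these classes had the shortest class highest as well (0.09, -0.009 and -0.04).

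The count of 16 moved with several choices. It was 21 without high-fat ZT 8 replicate 2 (10.7% of rows), which enters through the shared estimate of the spread, 12 with values as deposited (17.4%) and 4 with median-of-ratios size factors (6.54%). It was 6 without chow ZT 16 replicate 2 (2.74%) and 8 without the 2 libraries rich in striatal transcripts (3.33%), 1 of which is high-fat ZT 16 replicate 3. Relative to all rows, the median member difference stayed between -0.11 and -0.08 under the scalings, pseudocounts and filters tried. Some markers of cell types and regions differed between the same 6 libraries. The summed SCN markers were 2478 to 2937 under chow and 1302 to 2043 under the high-fat diet, and pan-neuronal markers were 5593 to 6709.9 and 4963 to 5526. Astrocyte markers were 2278 to 3025 and 3303 to 3653, and ependymal and tanycyte markers 191 to 248 and 315 to 369. None of these 4 ranges overlapped between diets. The ranges of every other marker list did, among them oligodendrocyte (4217 to 5321 and 4933 to 5911) and microglia markers (376 to 506 and 492 to 637). Those of other hypothalamic nuclei (2349 to 4158 and 1562 to 3011) overlapped as well. The part of the markers in the members' difference was not tested. At this time cytosolic ribosomal proteins had a median difference of 0.26 and respiratory chain subunits of 0.01.

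At the other 4 times few members passed. At ZT 0, 31 were lower (52.7% of all rows were) and the median difference was 0.007, against -0.007 over all rows. Mrpl40, a mitochondria-specific protein of the large subunit, alone passed unadjusted (3.9% of rows did), with 62.0, 58.9 and 57.2 under chow and 73.8, 65.5 and 66.0 under the high-fat diet (0.20 ± 0.08). At ZT 4, 44 were lower (35.9% of rows), with a median of -0.03 against 0.04 over all rows, and 0 passed unadjusted, against 1.5% of rows. Without chow ZT 4 replicate 2, the library with the highest member values, the members' median had the opposite sign (0.02). The median of all rows for that setting is not given here. At ZT 12, 21 were lower (58.5% of rows), with a median of 0.05 against -0.02 over all rows, and 0 passed unadjusted, against 0.975% of rows. At ZT 20, 17 were lower (64.3% of rows), with a median of 0.07 against -0.06 over all rows, and 2, Mrps26 and Mrps7, passed unadjusted, both higher, against 3.99% of rows. Mrps26, a mitochondria-specific protein of the small subunit, had the largest difference at ZT 20, with 93.5, 99.1 and 93.2 under chow and 111, 107 and 124 under the high-fat diet (0.25 ± 0.09, adjusted p = 0.772). The groups did not overlap, but the median over all members was 0.004, with 35 lower, when high-fat ZT 20 replicate 3 was left out (-0.01 and 55.2% lower over all rows). The counts of lower members also moved with the scaling. With values as deposited and with median-of-ratios size factors they were 6 and 26 at ZT 0, 64 and 64 at ZT 4, 3 and 6 at ZT 12, and 4 and 6 at ZT 20, and no median differed in sign between the scalings.

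**Figure D4:**
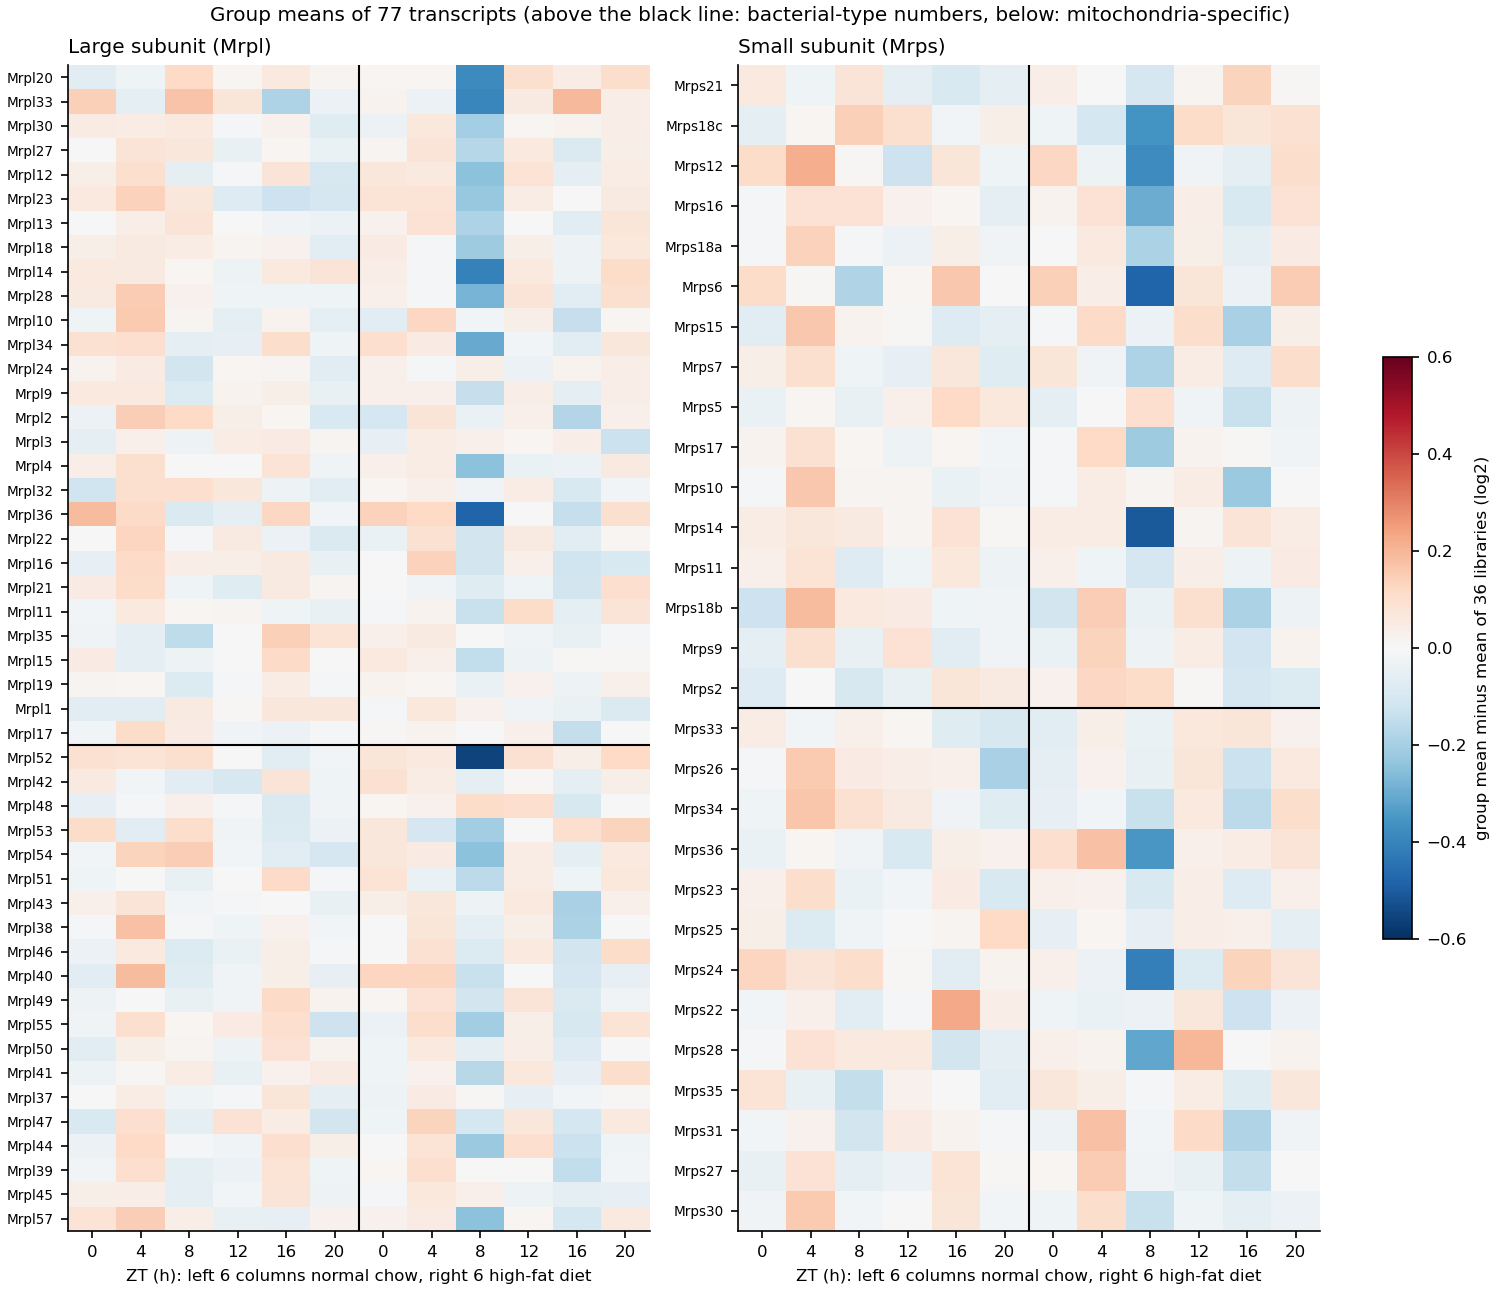
Mean of 3 libraries minus the mean over all 36 (log2, colour) for each of the 77 transcripts in the 12 groups, chow in the left 6 columns and high-fat diet in the right 6 of each panel. Blue is below and red above the mean; high-fat ZT 8 was below chow ZT 8 for 60 of 77 genes, and high-fat ZT 16 below chow ZT 16 for 64.

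Daily rhythms were tested as a 24 h cosine fitted to all 36 libraries with diet as a term. No member was called, 0 of 77, while 2.18% of the rows tested were; 11 members passed an unadjusted p of 0.05, against 13.1% of rows, and 0 or 2 did so with values as deposited or with median-of-ratios size factors (16.6% and 16.3% of rows). When high-fat ZT 8 replicate 2 was left out, 18 did (16.5% of rows). The median ratio of fitted peak to trough was 1.07, against 1.10 over all rows. Fitted peak times were taken for all 77, most of which did not pass unadjusted. The members share their libraries, so their peaks are not independent. The peaks were not spread evenly: 33 members peaked between ZT 18 and 24 and 27 between ZT 0 and 6, with 13 between ZT 6 and 12 and 4 between ZT 12 and 18. Over all rows the same 6 h spans held 3078, 3919, 3880 and 4286. Without high-fat ZT 8 replicate 2 the members' counts in these spans were 20, 35, 17 and 5. Those of all 15170 rows were then 3395, 4062, 2898 and 4815. The late-night count of the members was thus lower without that library, and that of all rows was higher. The smallest p belonged to Mrps6, the homologue of bacterial S6, with a 1.24-fold rhythm that peaked at ZT 20.3 ± 1.08 h (SE; adjusted p = 0.119, limma). It was lowest at ZT 8 in both diets, at 95.3, 77.5 and 82.4 under chow and 76.6, 49.7 and 85.5 under the high-fat diet. Its highest mean was at ZT 16 under chow (114, 101 and 109) and at ZT 20 under the high-fat diet (101, 105 and 116). Without high-fat ZT 8 replicate 2 the fold was 1.16. With time point as a factor in place of the cosine it was called (adjusted p = 0.0299, with 1.93% of rows called), and over the alternatives its adjusted p ran from 0.0299 to 0.306. Mrps6 shares 159 of its exon bases (18.8%) on the same strand with Slc5a3, an inositol transporter gene whose own fitted rhythm was 1.38-fold with a peak at ZT 19.0 (adjusted p = 0.169). It also shares 305 bases (36.1%) with the overlapping gene model Gm49711. Whether the counting could separate reads from these stretches is not given in the sources used here.

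Mrpl2, the homologue of bacterial L2 at the heart of the large subunit, had a 1.12-fold rhythm that peaked at ZT 6.68 ± 1.22 h (adjusted p = 0.208). Under chow it read 64.0, 75.7 and 68.2 at ZT 4, 68.6, 68.9 and 66.1 at ZT 8, and 56.3, 57.7 and 61.2 at ZT 20. The ZT 20 values all lay below those of ZT 4 and ZT 8. Under the high-fat diet it read 68.9, 67.8 and 61.3 at ZT 4 and 57.9, 61.7 and 62.3 at ZT 8. The values at ZT 20 (58.3, 59.6 and 73.9) included its highest under that diet. It was called without high-fat ZT 20 replicate 3 (adjusted p = 0.0156, 2.66% of rows called), and its adjusted p ran from 0.0156 to 0.493 over the alternatives. The other members with the smallest p were Mrpl36 (1.23-fold, peak ZT 22.5), Mrps10 (1.11-fold, ZT 4.91), Mrps18b (1.14-fold, ZT 7.0), Mrpl32 (1.10-fold, ZT 7.76), Mrpl10 (1.10-fold, ZT 4.96), Mrpl51 (1.08-fold, ZT 18.8), Mrps12 (1.18-fold, ZT 22.7) and Mrpl17 (1.08-fold, ZT 4.75). Their adjusted p-values ran from 0.245 to 0.361. Among these 10, members of both subunits had fitted peaks in the day, between ZT 4.75 and 7.76, and in the night, between ZT 18.8 and 22.7. In high-fat ZT 8 replicate 2 those with night peaks were low, with deviations of -0.94 (Mrps6), -1.11 (Mrpl36), -0.94 (Mrps12) and -0.33 (Mrpl51). Those with day peaks deviated by -0.15 (Mrpl17) to 0.07 (Mrps10). How far that library sets the night peaks was not tested.

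**Figure D5:**
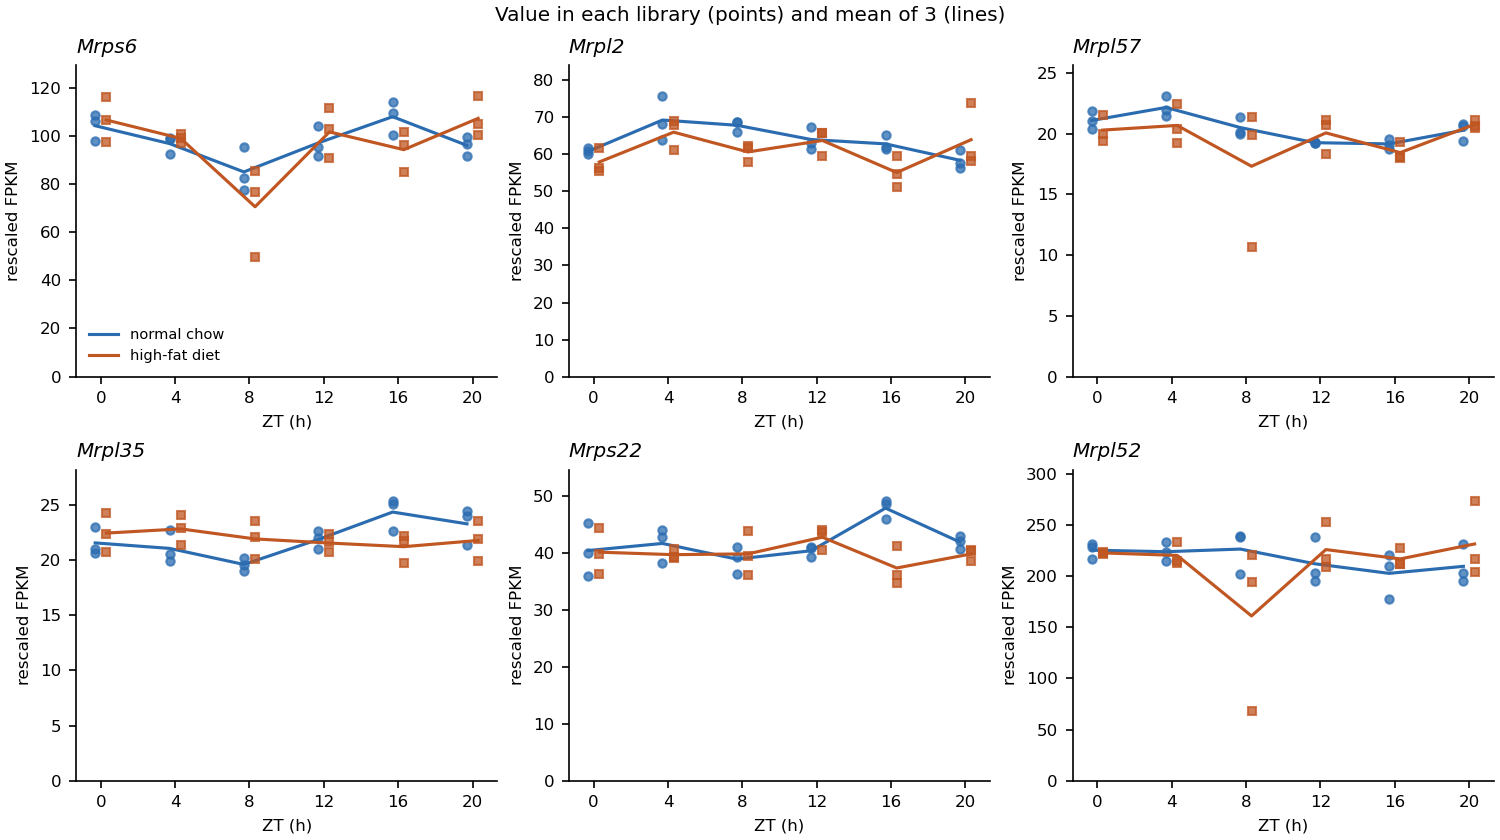
Rescaled FPKM of 6 transcripts in each library (points) against zeitgeber time, with lines through the means of 3 libraries, chow in blue and high-fat diet in orange. Mrps22 is separated between diets at ZT 16 (46.0 to 49.2 against 34.8 to 41.2), and the single low point at ZT 8 in Mrpl52 (68.5) is high-fat replicate 2.

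Each diet was also fitted alone. Under chow 0 of 77 were called (0.929% of rows were) and 10 passed unadjusted, against 18.5% of rows. Mrpl57, a small mitochondria-specific protein of the large subunit, had the smallest p, a 1.14-fold rhythm that peaked at ZT 2.71 ± 0.89 h (adjusted p = 0.0864). It read 22.0, 23.1 and 21.4 at ZT 4, 19.2, 19.3 and 19.2 at ZT 12, and 18.8, 19.6 and 19.1 at ZT 16, so that the ZT 4 values stood clear of those of ZT 12 and ZT 16. It was called with no filter on low rows (adjusted p = 0.0415, 0.499% of rows called), and over the alternatives its adjusted p ran from 0.0415 to 0.333. In the fit of both diets it was called once high-fat ZT 8 replicate 2, where it read 10.7, was left out (1.11-fold, peak ZT 2.93, adjusted p = 0.0388, 2.97% of rows called). Mrpl35 peaked at ZT 18 (1.19-fold, adjusted p = 0.0969), with 19.6, 20.2 and 19.0 at ZT 8 and 22.6, 25.4 and 25.1 at ZT 16. It was called without the 3 libraries rich in liver transcripts (adjusted p = 0.0481, 1.4% of rows called), and its adjusted p ran from 0.0481 to 0.340. Mrpl2 (1.16-fold, ZT 7.34), Mrpl23 (1.21-fold, ZT 4.28) and Mrpl54 (1.20-fold, ZT 6.25) had adjusted p-values of 0.0927, 0.120 and 0.121.

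Under the high-fat diet 0 of 77 were called (0.0725% of rows were) and 3 passed unadjusted, against 8.89% of rows. They were Mrps27 (1.16-fold, peak ZT 3.23, adjusted p = 0.490), Mrps2 (1.18-fold, ZT 5.61) and Mrps6 (1.35-fold, ZT 20.7); Mrpl53 (1.26-fold, ZT 19.1) and Mrps7 (1.14-fold, ZT 21) came next. When high-fat ZT 8 replicate 2 was left out, 6 members passed unadjusted (8.29% of rows), and the folds of Mrps2, Mrps6, Mrpl53 and Mrps7 were 1.13, 1.18, 1.15 and 1.09. In the fit of the high-fat diet 40 of the 77 peaked between ZT 18 and 24, against 19 under chow, and of all 15173 rows 2613 and 4000 did so. Without the low library at ZT 8, 25 of the 77 peaked in that span under the high-fat diet, and 2491 of 15170 rows. Whether the rhythms differed between diets was itself tested: 0 of 77 were called, 0% of rows were, and 6 passed unadjusted, against 13.2% of rows. Mrpl35, the homologue of bacterial L35, had the smallest p (unadjusted 0.0030, adjusted p = 0.357). Against the values under chow above, it read 20.1, 23.5 and 22.1 at ZT 8 and 22.1, 21.7 and 19.7 at ZT 16 under the high-fat diet, and these times overlapped, while under chow every ZT 16 value was above every ZT 8 value. Next came Mrps2, Mrpl53, Mrpl18 and Mrpl54, with adjusted p-values of 0.357 to 0.373.

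Lists of genes that act with the mitochondrial ribosome were described in the same way. Of 6 tested further mitoribosomal proteins that carry other names, 0 were called for a rhythm or for diet over all times. Ict1, which rescues stalled mitochondrial ribosomes and is part of the large subunit, had a 1.14-fold rhythm that peaked at ZT 4.87 (adjusted p = 0.177). The median diet difference of these 6 was -0.21 at ZT 8 (-0.009 without high-fat ZT 8 replicate 2) and -0.13 at ZT 16. Of 15 mitochondrial translation factors 0 were called, and Oxa1l, which inserts newly made proteins into the inner membrane, had the smallest p for a rhythm (1.10-fold, peak ZT 6.63, adjusted p = 0.195). At ZT 8, 12 of the 15 were higher under the high-fat diet, with a median of 0.09, near the 70.8% and 0.12 of all rows; without high-fat ZT 8 replicate 2, 10 were, with a median of 0.07, against 61.7% and 0.04. At ZT 16, 13 were lower, with a median of -0.10, against 55.0% and -0.02 of all rows. Of 22 assembly factors, 20 were tested and 0 were called; the RNA methyltransferase Nsun4 had the smallest p (1.11-fold, peak ZT 2.16, adjusted p = 0.209). Of 17 mitochondrial aminoacyl-tRNA synthetases, which charge mitochondrial tRNAs, 1 was called. Cars2, the cysteinyl enzyme, oscillated 1.20-fold with a peak at ZT 22.8 (adjusted p = 0.0117, and 0.0120 without high-fat ZT 8 replicate 2). Of the 9 tested genes of mitochondrial transcription and DNA maintenance and the 9 regulators of mitochondrial genes 0 were called. Among the regulators, Nrf1 had a 1.16-fold rhythm (adjusted p = 0.307) and Ppargc1a, which codes for the coactivator PGC-1alpha, a 1.20-fold rhythm (adjusted p = 0.497).

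Many of these genes share a start region with a neighbour. In GENCODE M21 on GRCm38, 33 of the 77 (42.9%) had a protein-coding gene starting on the other strand within 1000 bases, against 14.7% of the 13682 tested protein-coding genes. Mrps11 and Mrpl46 were each other's partner, with starts 412 bases apart. Of the 28 tested partners that are not members, 1 was called for a rhythm. This was Apba3, which starts 26 bases from Mrpl54 and oscillated 1.21-fold and peaked at ZT 20.1 (adjusted p = 0.0371, and 0.0541 without high-fat ZT 8 replicate 2). Klc4, a kinesin light chain gene 207 bases from Mrpl2, had a peak at ZT 21.7 (1.17-fold, adjusted p = 0.0963, and 0.0392 without that library), against ZT 6.68 for Mrpl2. At ZT 8 the partners' median diet difference was 0.10, with 11 of 28 lower, against 0.12 and 29.2% lower over all rows. Without that library it was 0.07, with 11 lower, against 0.04 and 38.3% over all rows. At ZT 16 the partners' median was -0.06, with 19 lower. The median and share of all rows at ZT 16 are those given above beside the translation factors. In addition, 25 members share exon bases with another annotated gene, 5 on the same strand (Mrpl33, Mrpl51, Mrpl53, Mrps18c and Mrps6) and 21 on the opposite strand. The library kit keeps strand, but whether counting used it is not given in the sources used here. Values of these members are uncertain to that degree, most of all Mrpl53, whose exons lie wholly within those of Gm42688.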

How the data were processed

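The labels' protocols describe RNA from an SCN-enriched region, extracted with the RNeasy Micro Kit and made into TruSeq stranded mRNA libraries. Per the submitters' processing notes, the authors used Trimmomatic, TopHat and Cufflinks with builds mm10 and GRCm38, and versions are not given in the sources used here. The deposited values are FPKM, 1 table per diet with 24883 rows and 1 column per library, the unit being inferred from Cufflinks and the values. Depth is unknown, so no counting interval was computed. Times are numbered without a unit in the sample labels, and headers in the files mark those numbers as ZT.

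Each library was rescaled to 1000000 and transformed as log2(value + 1), which understates changes of low genes. Rows with a mean of at least 1 over 36 libraries were tested with limma 3.58.1 (mean-variance trend, two-sided) in R 4.3.3: 24 h cosine and sine terms over all libraries with diet, or per diet; diet by rhythm; diet with time as a factor; and diet at each time from 12 group means. Scripts were tested on simulated data. The members, lists and tests were chosen with earlier results of these data known. Named members are those with the 10 (both diets) or 5 smallest p for rhythm, the 5 most positive and negative for diet, 1 each way per time point, the 5 highest and lowest levels and the 3 largest and smallest SDs. For each pathway list they are those called or with the smallest p. Other genes named were chosen after their values were seen, as were the length classes. Transcript length is that of the longest protein-coding transcript with a RefSeq match, or of the longest protein-coding one where none had a match. A length was found for 77 members and 90.6% of rows tested.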

Additional observations from a re-analysis of the deposited data

How the results depend on the processing

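The 0 calls for the rhythm under the high-fat diet, for the difference in rhythm and for diet over all times stayed 0 under every alternative run. For the rhythm over both diets the count was 1 with time point as a factor and 0 to 1 with 1 library left out, and under chow it was 1 with no filter and 1 once the 3 liver-rich libraries were left out. At single time points it ran from 0 to 16 with 1 library left out. With 1 library left out, members lower unadjusted at ZT 8 ran from 1 (1.11% of rows were lower by this rule) to 35. They were 16 without chow ZT 8 replicate 1 and 19 without chow ZT 8 replicate 2. At ZT 16 they ran from 6 (2.74% of rows) to 21 (10.7%), with 10 without high-fat ZT 16 replicate 3. For the counts of 35, 16, 19 and 10 the share of all rows is not given here, so they cannot be read against it. At ZT 16 there were 4 with median-of-ratios size factors (6.54% of rows) and 8 without the 2 libraries rich in striatal transcripts (3.33%). The last setting and the one on liver transcripts were chosen after seeing the data. The median difference at ZT 8 was -0.24 with values as deposited and -0.25 with median-of-ratios size factors, and at ZT 16 -0.18 as deposited. The causes were not tested, apart from the share of high-fat ZT 8 replicate 2 given above.

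Over all rows, the calls for a chow rhythm went from 141 to 259 with median-of-ratios size factors, 212 without the liver-rich libraries, 73 without chow ZT 4 replicate 2 and 49 with time as a factor, and those for a high-fat rhythm from 11 to 1 with time as a factor. With a replicate block, 0 members were called in every comparison, and 29 were lower unadjusted at ZT 8 and 15 at ZT 16. The shares of all rows lower by that rule with the block are not given here. Rows called for the rhythm with the block were 366 over both diets, 99 under chow and 8 under the high-fat diet. No label says that a replicate number marks a shared animal or day, and not every same-numbered pair had a correlation of deviations over 0.1 (9 of 18 did; range -0.28 to 0.32), so the numbers were not used to pair libraries. As a hint from the data, 12 of 18 chow libraries correlated best with the high-fat library of their own number (median 0.103, against -0.05 for other numbers). Precision is limited by 3 libraries per group and an unknown depth.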
